A study of Mus musculus with 6 samples.

Results

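Imprinted genes are expressed from the copy inherited from a single parent. Methylation laid down in the germline at imprinting control regions marks the parental copies, and many of the genes lie in clusters in which paternally and maternally expressed genes neighbour a long noncoding RNA that silences in cis. Many of the genes control growth of the fetus and placenta, and in the male germline the marks are erased and rewritten before birth, while somatic cells of the testis keep them. The set comprised 40 listed imprinted genes, found by symbol among the 54232 genes counted, and all 40 had enough reads to be tested among 20327 genes. From textbook knowledge, 20 of the genes are expressed from the paternal allele and 19 from the maternal allele, and Gnas has promoters of both kinds. The counts do not separate the alleles, so every value below is the sum of both.

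RNA-seq was performed on whole testes of B6D2F1 mice at postnatal day 12 (P12), when the first wave of germ cells is entering meiosis, with 3 libraries labelled Dis3l2 KO and 3 control libraries labelled Dis3l2 WT. The study describes the knockout as Stra8-Cre; Dis3l2 F/-, with a floxed and a deleted Dis3l2 allele and Cre acting in germ cells from the spermatogonial stage, and the controls as littermates. It calls the libraries of a group biological replicates, and the labels say no more of which animals they came from. Levels are given as CPM, counts per 1000000 assigned reads after scaling by TMM, a factor computed from the bulk of the genes. Fold changes are KO-labelled over control on the log2 scale from edgeR's quasi-likelihood test. A gene was called where its p adjusted over all 20327 genes by Benjamini-Hochberg was under 0.05.

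Dis3l2 itself was at 31.6, 25.4 and 27.5 CPM in KO-labelled libraries, against 25.8, 23.5 and 23.0 CPM in controls, with a log2 fold change of 0.22 (95% interval -0.01 to 0.46, adjusted p = 0.136 by edgeR). The homologous exonuclease gene Dis3 was at 59.1, 64.3 and 68.1 CPM in KO-labelled libraries, against 133, 148 and 137 CPM in controls (log2 fold change -1.13, adjusted p = 2.7e-07). A deletion of some exons need not lower the count of a whole gene, and the study's own checks of the deletion are not analysed here. The titles and genotype labels name Dis3l2, whereas the design text of the series names a conditional knockout of Dis3, and these labels cannot settle which gene the KO-labelled testes lack. Since the Dis3l2 count was not lower in the libraries labelled KO, the groups are called KO-labelled and control throughout. Libraries held 37533318 to 44956193 assigned reads in the KO-labelled group and 33325483 to 41945867 in the controls.

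Testis cell markers differed between the groups. All 14 markers of meiotic prophase and all 5 general germ cell markers were lower in KO-labelled testes, and the meiotic markers summed to 454 to 591 CPM in KO-labelled libraries, against 1601 to 1950 CPM in controls. Of the markers of differentiating spermatogonia, 3 of 5 were lower, while 6 of 9 markers of undifferentiated spermatogonia were called higher and none lower, with sums of 237 to 273 CPM in KO-labelled libraries, against 193 to 198 CPM in controls. Of the somatic markers, 12 of 13 Sertoli genes, 6 of 8 Leydig genes and 6 of 8 macrophage genes were called higher, while 3 of 6 peritubular myoid genes were lower. Only 2 of 6 stromal and 2 of 8 endothelial genes were called higher, and none lower. The stromal markers summed to 3307 to 5252 CPM in KO-labelled libraries, against 2952 to 3989 CPM in controls, which overlapped. The Sertoli markers summed to 13048 to 13717 CPM in KO-labelled libraries, against 8097 to 8717 CPM in controls, and no cell type list apart from that of adipocytes had a marker at 0 in every library. In a bulk sample, fewer cells of a type and less RNA per cell cannot be told apart. The part that this shift in markers has in the values below was not tested, apart from the rescaling to somatic markers described after the clusters.

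Of the 40 imprinted genes, 16 were called higher and 2 lower in KO-labelled testes, and 22 did not pass the test. Across all genes tested, 16.2% were called higher, 16.5% lower and 32.7% in either direction. The median log2 fold change of the imprinted genes was 0.27, against -0.02 over all genes. For 21 of the 40 genes every library of one group lay above every library of the other, as was so for 45.5% of all genes. Calls went with level: of the 23 imprinted genes at 20 CPM or more on average, 14 were higher and 1 was lower, where 29.4% and 19.9% of all genes at that level were. Of the 17 genes under 20 CPM, 2 were higher and 1 was lower, where 7.54% and 14.2% of all such genes were.

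**Figure D1:**
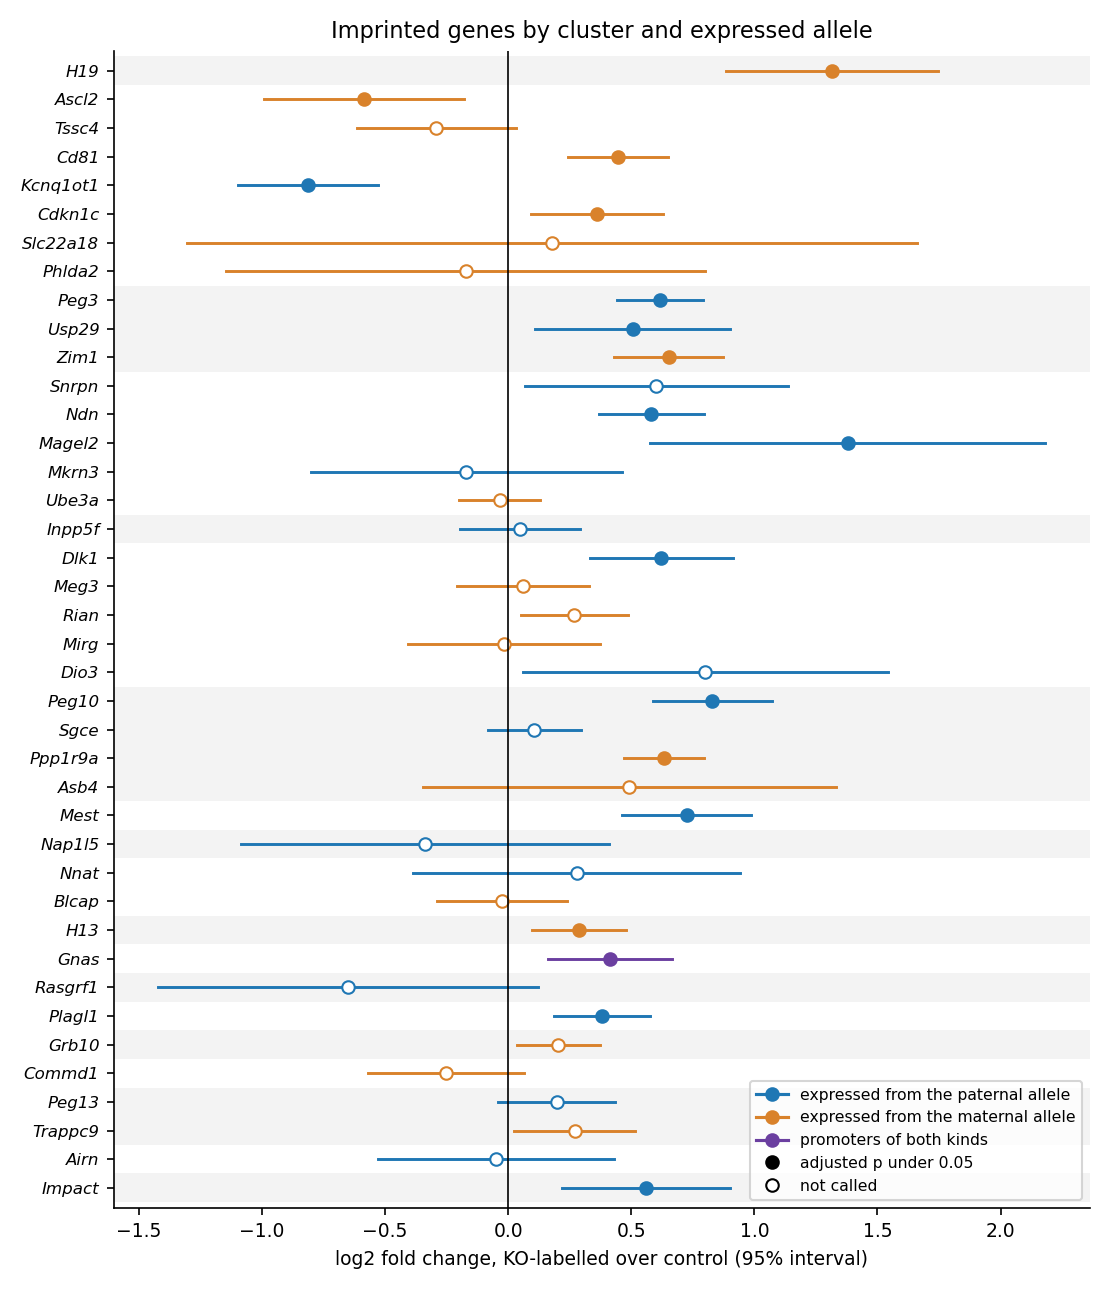
Log2 fold change (x axis, KO-labelled over control) of each of the 40 imprinted genes with its 95% interval, grouped by cluster in alternating bands and coloured by the expressed allele, with filled points for genes at an adjusted p under 0.05. The 3 genes of the Peg3 cluster all lie to the right of 0, H19 and Magel2 lie farthest right at 1.31 and 1.38, and Kcnq1ot1 lies farthest left at -0.81.

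Per kilobase of exon, the imprinted genes covered a wide range of levels. Gnas, which encodes the stimulatory G protein alpha subunit, was the most abundant at 321 CPM per kilobase in KO-labelled testes, against 241 in controls, and its lowest library was just above the highest library of any other gene of the set in either group. Peg10 came next at 184 CPM per kilobase in KO-labelled testes, against 103 in controls. Dlk1 followed at 133 CPM per kilobase in KO-labelled testes, against 86.6 in controls, and the KO-labelled libraries of Peg10 and Dlk1 overlapped. The KO-labelled mean of H19 was 103 CPM per kilobase, above that of Cd81 at 82.5, with overlapping libraries. In controls H19 was at 41.5 CPM per kilobase, below Cd81 at 60.5, and those libraries did not overlap. At the low end, Rasgrf1, an exchange factor for Ras, was at 0.0904 CPM per kilobase in KO-labelled testes, against 0.142 in controls. Such genes rested on few reads: Slc22a18, which encodes an organic cation transporter, had between 3 and 17 reads in a library.

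**Figure D2:**
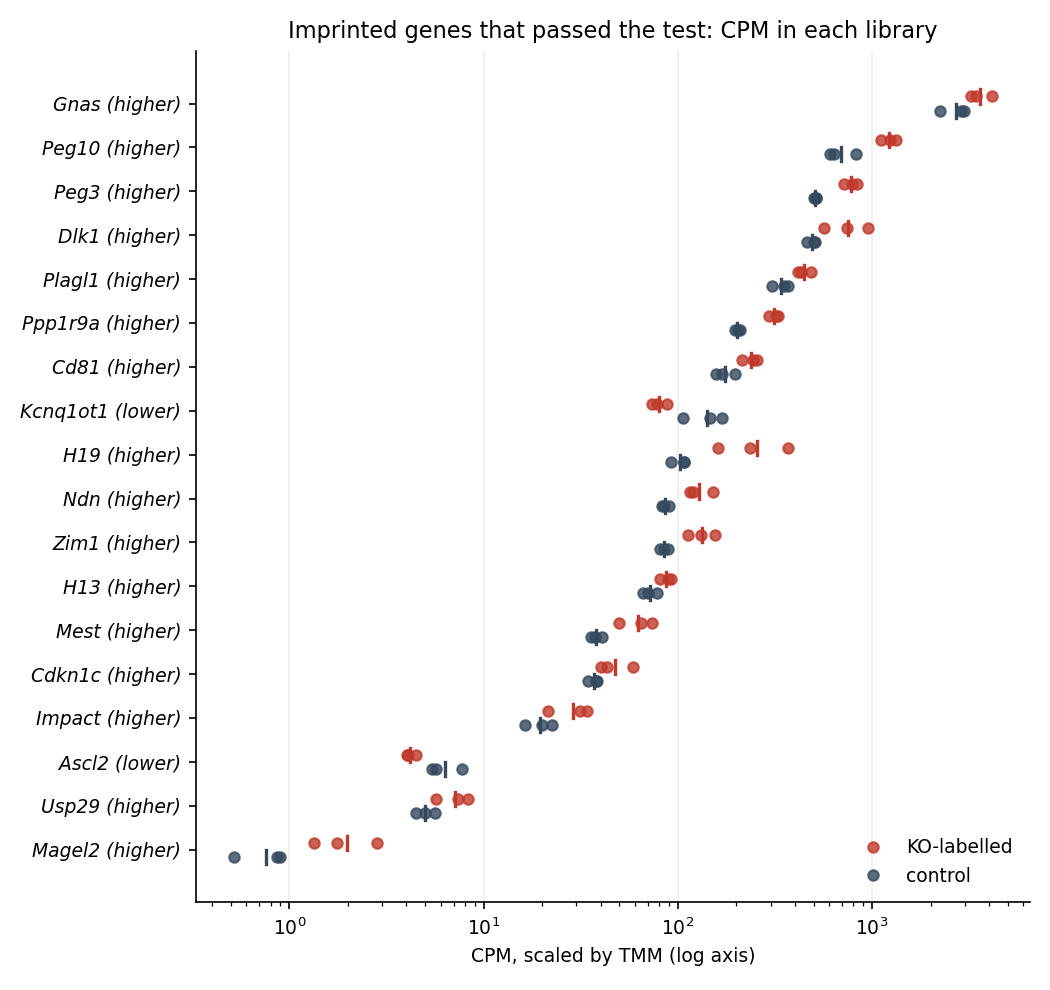
CPM of the 18 called imprinted genes in each library (x axis, log scale), with KO-labelled libraries above control libraries for each gene and a bar at each group's mean (n = 3). The KO-labelled points lie right of the control points without overlap for 15 of the 16 higher genes, Impact being the exception, and left of them for Kcnq1ot1 and Ascl2. The genes shown were picked by the test between these groups, so separation follows largely from the choice. Of all genes tested, called or not, 45.5% had no overlap.

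H19, a maternally expressed long noncoding RNA on distal chromosome 7 (chr7:142575529-142578143, minus strand, GRCm38), was the most raised of the abundant members. It was at 367, 160.5 and 235 CPM in KO-labelled libraries, against 107, 92.5 and 107 CPM in controls. Every KO-labelled library was above every control, and the KO-labelled libraries also spread far wider, at 254 ± 105 CPM in KO-labelled testes and 102 ± 8.39 CPM in controls (SD, n = 3 each). The log2 fold change was 1.31 (SE 0.20, adjusted p = 1.76e-04). Without KO-labelled replicate 1, the highest library, it was 0.96 (adjusted p = 3.57e-05), and over all alternatives the adjusted p was at most 0.00316. The RNA is also the precursor of a miRNA hairpin, whose mature arms are shown because reads on its 84 bases were not assigned to H19, with the seed (bases 2 to 8) in capitals:
miR-675-5p: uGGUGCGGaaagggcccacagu
miR-675-3p: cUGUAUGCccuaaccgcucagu

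Igf2, the paternally expressed fetal growth factor that shares enhancers with H19, is not one of the 40 genes but lies next to it. It was at 116, 132 and 125 CPM in KO-labelled libraries, against 58.8, 50.5 and 61.0 CPM in controls (log2 fold change 1.13, adjusted p = 6.1e-07). Neighbours expressed from opposite parental alleles were both higher. The ratio of H19 to Igf2 reads was 3.16, 1.22 and 1.88 in KO-labelled libraries, against 1.82, 1.83 and 1.75 in controls, so the KO-labelled ratios lay on either side of a narrow control range. A two-sided exact permutation test of this log ratio gave p = 0.7 (6 gene pairs tested, adjusted p = 0.7), and with 3 libraries a group the smallest p possible is 0.1.

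**Figure D3:**
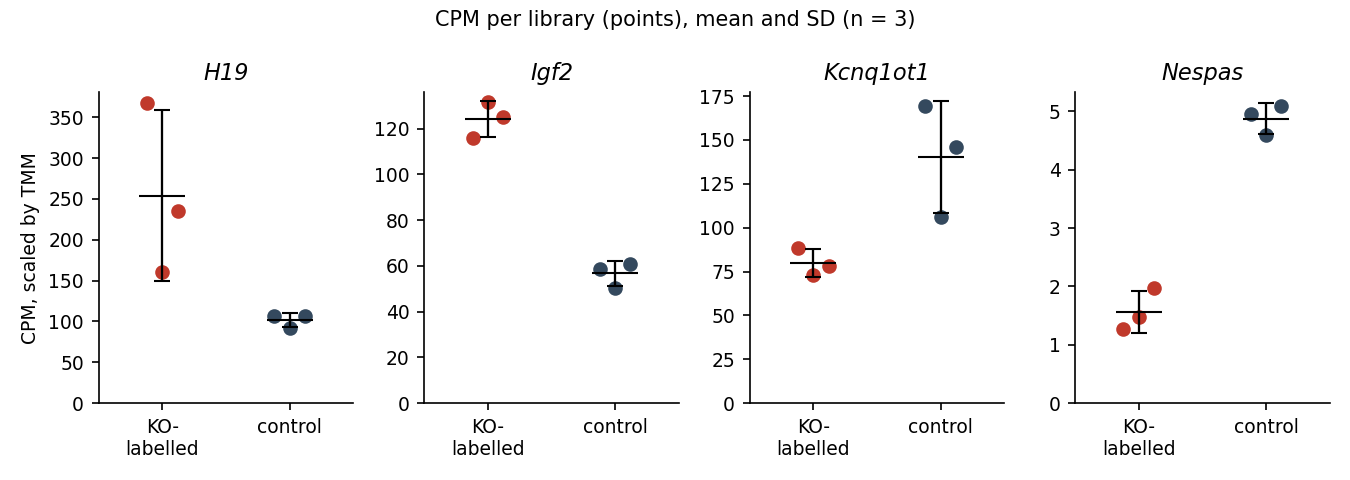
CPM (y axis) of H19, Igf2, Kcnq1ot1 and Nespas in each library, KO-labelled left of control, with the mean and SD of each group (n = 3). H19 and Igf2 are higher in KO-labelled libraries, with H19 between 160.5 and 367 CPM there, and Kcnq1ot1 and Nespas are lower.

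The neighbouring domain on chromosome 7 is governed by Kcnq1ot1, a paternally expressed antisense RNA that silences surrounding genes on the paternal chromosome. Kcnq1ot1 was lower, at 88.4, 73.2 and 78.0 CPM in KO-labelled libraries, against 169, 106 and 146 CPM in controls (log2 fold change -0.81, SE 0.13, adjusted p = 3.02e-04). The groups did not overlap, and the control libraries differed among themselves more than the KO-labelled ones. The gene is annotated as a single exon of 93092 bases (chr7:143203458-143296549, minus strand), so its level per kilobase was low, 0.858 CPM in KO-labelled testes and 1.51 CPM in controls. Some classes of noncoding or unverified genes were also lower in KO-labelled libraries. Antisense genes, the class of Kcnq1ot1, summed to 1346, 1323 and 1318.5 CPM in KO-labelled libraries, against 1638, 1432 and 1527 CPM in controls. That sum includes Kcnq1ot1 itself. Genes of the unverified class that GENCODE terms TEC summed to 959, 951 and 1022 CPM in KO-labelled libraries, against 1693, 1257 and 1536 CPM in controls, with the control libraries in the same order as for Kcnq1ot1 and the KO-labelled libraries in another. Long intergenic RNAs summed to 9850.3, 11263 and 12238 CPM in KO-labelled libraries, against 11798, 8987 and 14708 CPM in controls, which overlapped. Between 27705 and 28414 genes had at least 1 read in KO-labelled libraries, against 31560 to 34399 in controls. The part of this difference in the Kcnq1ot1 result was not tested. The window from 250 bases before to 50 bases after its start (chr7:143296498-143296797, minus strand) is shown with its 9 CG dinucleotides in capitals, since methylation of CG at this promoter carries the imprint:
Kcnq1ot1: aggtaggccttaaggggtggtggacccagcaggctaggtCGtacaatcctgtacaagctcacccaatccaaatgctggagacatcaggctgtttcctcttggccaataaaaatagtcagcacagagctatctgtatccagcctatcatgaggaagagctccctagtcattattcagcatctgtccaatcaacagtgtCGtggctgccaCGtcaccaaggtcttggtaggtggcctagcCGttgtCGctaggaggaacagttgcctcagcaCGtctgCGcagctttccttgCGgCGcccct

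The protein-coding genes around Kcnq1ot1 that are taken as maternally expressed did not move in a single direction. Of these, Cd81, Ascl2 and Tssc4 are classed from general knowledge as imprinted mainly in placenta, brain or another restricted tissue. Their expressed allele in testis was not checked. Cd81, which encodes a tetraspanin, was at 254, 244 and 215 CPM in KO-labelled libraries, against 169, 156 and 197 CPM in controls (log2 fold change 0.45, adjusted p = 0.00225). Cdkn1c, which encodes the cyclin-dependent kinase inhibitor p57, was at 58.7, 43.1 and 40.2 CPM in KO-labelled libraries, against 37.8, 38.4 and 34.4 CPM in controls (log2 fold change 0.36, adjusted p = 0.0396). The margin between the groups of Cdkn1c was narrow, and its call was lost without KO-labelled replicate 1 or any of the 3 controls, with log2 fold changes of 0.19 to 0.47 and adjusted p up to 0.203 when 1 library was left out. Ascl2, a transcription factor of trophoblast and intestinal stem cells, was lower, at 4.02, 4.09 and 4.48 CPM in KO-labelled libraries, against 5.70, 7.77 and 5.43 CPM in controls (log2 fold change -0.59, adjusted p = 0.0275). The Ascl2 call was lost without KO-labelled replicate 1 or 2 or control replicate 2, with adjusted p up to 0.186. Tssc4, Phlda2, which limits growth of the placenta, and Slc22a18 did not pass the test, with log2 fold changes of -0.29 (95% interval -0.61 to 0.03), -0.17 (-1.14 to 0.80) and 0.18 (-1.31 to 1.66). The ratio of Kcnq1ot1 to Cdkn1c reads was 1.51, 1.70 and 1.94 in KO-labelled libraries, against 4.47, 2.77 and 4.24 in controls, with no overlap (exact permutation p = 0.1, the smallest possible, adjusted p = 0.3).

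All 3 members of the Peg3 cluster on proximal chromosome 7 were higher in KO-labelled testes. Peg3, a paternally expressed zinc finger protein, was at 839.6, 792 and 712 CPM in KO-labelled libraries, against 512, 513 and 504 CPM in controls (log2 fold change 0.62, SE 0.08, adjusted p = 5.1e-05). Zim1, a zinc finger gene expressed from the maternal allele, was at 156, 131 and 112.5 CPM in KO-labelled libraries, against 80.7, 84.9 and 88.5 CPM in controls (log2 fold change 0.65, adjusted p = 2.43e-04). The controls of both genes were tightly grouped, and the KO-labelled libraries of both ran in the same order. The ratio of Zim1 to Peg3 reads was 0.158 to 0.186 in KO-labelled libraries and 0.158 to 0.176 in controls (exact permutation p = 0.6, adjusted p = 0.7). Usp29, a ubiquitin-specific protease gene read from the paternal allele in the opposite direction to Peg3, was at 7.37, 5.70 and 8.28 CPM in KO-labelled libraries, against 5.59, 4.47 and 4.98 CPM in controls (log2 fold change 0.51, adjusted p = 0.0487). The lowest KO-labelled library of Usp29 lay just above the highest control. Its call was lost under 7 of 12 alternatives, among them leaving out KO-labelled replicate 1 or 3 or any control, with log2 fold changes of 0.39 to 0.65 and adjusted p up to 0.15 when 1 library was left out. The start sites of Peg3 and Usp29 face away from each other, and their promoter windows share 263 of 300 bases. The window of Peg3 (chr7:6730370-6730669, minus strand) is shown because it covers the start regions of both genes, with its 13 CG dinucleotides in capitals:
Peg3: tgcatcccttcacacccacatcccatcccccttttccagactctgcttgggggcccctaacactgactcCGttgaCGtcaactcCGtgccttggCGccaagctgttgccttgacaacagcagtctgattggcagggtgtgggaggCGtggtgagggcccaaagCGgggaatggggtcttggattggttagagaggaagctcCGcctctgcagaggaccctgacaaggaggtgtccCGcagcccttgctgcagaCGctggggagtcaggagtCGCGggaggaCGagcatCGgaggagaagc

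The Snrpn-Ube3a cluster, also on chromosome 7, is the mouse counterpart of the Prader-Willi and Angelman region. Ndn, the paternally expressed MAGE family gene encoding necdin, was at 151, 119.6 and 115 CPM in KO-labelled libraries, against 82.6, 84.4 and 90.4 CPM in controls (log2 fold change 0.58, adjusted p = 4.29e-04). Its neighbour Magel2, of the same family, had the highest fold change of the set at a low level: 2.83, 1.75 and 1.34 CPM in KO-labelled libraries, against 0.893, 0.518 and 0.863 CPM in controls (log2 fold change 1.38, SE 0.38, adjusted p = 0.011). Without KO-labelled replicate 1 the Magel2 call was lost (log2 fold change 1.04, adjusted p = 0.0675). Snrpn, which encodes the splicing protein SmN, was at 2.76 ± 0.481 CPM in KO-labelled testes and 1.82 ± 0.180 CPM in controls (SD, n = 3 each) without overlap, but did not pass the test (log2 fold change 0.60, adjusted p = 0.0801). Of its exon bases, 27.3% are shared with same-strand genes, Snurf among them, and reads there were not counted. Mkrn3, a makorin ubiquitin ligase gene, showed a log2 fold change of -0.17 (95% interval -0.80 to 0.46). Ube3a, the ubiquitin ligase gene expressed from the maternal allele in neurons and from both alleles in most other tissues, was at 209, 227 and 208 CPM in KO-labelled libraries, against 227, 226 and 206 CPM in controls. Its interval was among the narrowest of the set, -0.20 to 0.13.

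In the Dlk1-Dio3 cluster on chromosome 12, 1 of 5 genes was called. Dlk1, a paternally expressed transmembrane relative of the Notch ligands, was at 951, 742 and 568 CPM in KO-labelled libraries, against 501, 462 and 507 CPM in controls (log2 fold change 0.62, SE 0.14, adjusted p = 0.00269). The KO-labelled libraries spread over a far wider range than the controls, and the lowest stood only a little above them. Meg3, Rian and Mirg, noncoding RNAs transcribed from the maternal allele and hosting snoRNAs and miRNAs, did not pass the test. Meg3 was at 39.7, 37.6 and 35.0 CPM in KO-labelled libraries, against 38.4, 28.1 and 41.1 CPM in controls (log2 fold change 0.06, 95% interval -0.21 to 0.33). Rian was at 79.2, 62.3 and 62.5 CPM in KO-labelled libraries, against 60.0, 55.5 and 53.8 CPM in controls, with no overlap and an adjusted p of 0.0564 by edgeR. Rian passed under 6 of 12 alternatives, with adjusted p of 0.0395 by DESeq2, 0.0491 with RLE factors, 0.0213 with no filter, 0.0363 with the replicate block, and 0.0469 and 0.0279 without KO-labelled replicate 2 and 3, and turned to -0.05 with somatic scaling. Mirg showed a log2 fold change of -0.02 (-0.41 to 0.37). The ratio of Meg3 to Dlk1 reads was 0.0418, 0.0507 and 0.0617 in KO-labelled libraries, against 0.0767, 0.0609 and 0.0810 in controls, which overlapped (exact permutation p = 0.2, adjusted p = 0.3). Dio3, the deiodinase that inactivates thyroid hormone, was at 2.09 ± 0.825 CPM in KO-labelled testes and 1.19 ± 0.205 CPM in controls (SD, n = 3 each), with overlapping libraries (log2 fold change 0.80, adjusted p = 0.0922). It was called without KO-labelled replicate 2 (1.11, adjusted p = 0.0209).

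On chromosome 6, 2 of the 4 members of the Peg10 cluster were higher. Peg10, a paternally expressed gene derived from a retrotransposon, was at 1233, 1329 and 1112 CPM in KO-labelled libraries, against 637, 827 and 604 CPM in controls (log2 fold change 0.83, SE 0.11, adjusted p = 6.2e-05). Ppp1r9a, which encodes the actin-binding protein neurabin, was at 294, 328 and 320.4 CPM in KO-labelled libraries, against 197, 208 and 203 CPM in controls (log2 fold change 0.63, adjusted p = 2.3e-05). It is taken as maternally expressed, but is classed as imprinted mainly in a restricted tissue, and its expressed allele in testis was not checked. Both groups of Ppp1r9a were tight and far apart. The ratio of Ppp1r9a to Peg10 reads was 0.238, 0.247 and 0.288 in KO-labelled libraries, against 0.309, 0.252 and 0.336 in controls, which overlapped (exact permutation p = 0.2, adjusted p = 0.3). Sgce, encoding epsilon-sarcoglycan, is paternally expressed and starts beside Peg10 on the other strand. Its level was 53.4, 51.2 and 50.5 CPM in KO-labelled libraries, against 51.8, 46.9 and 45.3 CPM in controls, which overlapped (log2 fold change 0.11, 95% interval -0.08 to 0.29). Asb4, a suppressor of cytokine signalling box gene, was near 1 CPM, with a log2 fold change of 0.49 (-0.35 to 1.33).

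Mest, a paternally expressed gene of the alpha/beta hydrolase family on chromosome 6 (chr6:30723547-30748465, plus strand), was at 73.6, 64.6 and 49.8 CPM in KO-labelled libraries, against 35.5, 37.5 and 40.7 CPM in controls (log2 fold change 0.72, SE 0.12, adjusted p = 4.0e-04). All KO-labelled libraries were above all controls. Copg2, the coatomer gene on the opposite strand, was lower, at 84.3, 99.5 and 90.7 CPM in KO-labelled libraries, against 118, 122 and 112 CPM in controls (log2 fold change -0.36, adjusted p = 0.00381). Mest also hosts a miRNA, shown with the seed in capitals to set beside that of H19. The seeds of the 4 arms printed here all differ:
miR-335-5p: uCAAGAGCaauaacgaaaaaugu
miR-335-3p: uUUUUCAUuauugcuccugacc

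The remaining called genes stand alone or in small domains. Gnas was at 4133, 3424 and 3212 CPM in KO-labelled libraries, against 2873, 2968 and 2235 CPM in controls (log2 fold change 0.42, adjusted p = 0.0138). The call for Gnas was lost without control replicate 3, its lowest library (log2 fold change 0.30, adjusted p = 0.06), and the adjusted p reached 0.684 with libraries scaled to somatic markers. The Gnas count sums transcripts from all its promoters, which differ in the allele they use. Plagl1, a paternally expressed zinc finger transcription factor, was at 486, 413 and 432 CPM in KO-labelled libraries, against 367, 350.3 and 304 CPM in controls (log2 fold change 0.38, adjusted p = 0.0048). H13, which encodes signal peptide peptidase, was at 92.2, 88.5 and 81.3 CPM in KO-labelled libraries, against 70.2, 66.1 and 78.4 CPM in controls (log2 fold change 0.29, adjusted p = 0.0218). The H13 call was lost without KO-labelled replicate 1 or 2 or control replicate 1 or 2, with log2 fold changes of 0.26 to 0.36 and adjusted p up to 0.0912. Impact, a paternally expressed regulator of translation under stress, was at 33.9, 31.3 and 21.5 CPM in KO-labelled libraries, against 19.9, 22.6 and 16.4 CPM in controls (log2 fold change 0.56, adjusted p = 0.0145). Impact was the only called gene of the set whose groups overlapped, and its call was lost without KO-labelled replicate 1 or 2 or control replicate 3, with log2 fold changes of 0.44 to 0.74 and adjusted p up to 0.0748.

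The other genes in this group did not pass the test. Grb10, an adaptor that restrains signalling from the insulin and IGF receptors, was at 184 ± 10.2 CPM in KO-labelled testes and 159.5 ± 8.29 CPM in controls (SD, n = 3 each) without overlap, with a log2 fold change of 0.20 and an adjusted p of 0.0589 (0.0389 by DESeq2). Trappc9, a subunit of the TRAPP vesicle tethering complex, showed a log2 fold change of 0.27 (adjusted p = 0.0868, but 0.0453 with no filter, 0.0384 without KO-labelled replicate 1 and 0.0343 without control replicate 3), and Peg13, the noncoding RNA within it, one of 0.20 (95% interval -0.04 to 0.44). Airn, the paternal antisense RNA of the Igf2r domain, was at 3.73 ± 0.820 CPM in KO-labelled testes and 3.86 ± 0.677 CPM in controls (SD, n = 3 each). Nnat, encoding a small membrane proteolipid, ranged from 3.19 to 11.3 CPM in KO-labelled libraries, against 5.34 to 6.70 CPM in controls, and was called only without KO-labelled replicate 1, its lowest library (log2 fold change 0.64, adjusted p = 0.0207). Blcap, in whose intron Nnat lies, showed a log2 fold change of -0.03 (-0.29 to 0.24), Inpp5f, an inositol phosphatase gene, 0.05 (-0.19 to 0.29), Commd1, a copper homeostasis gene, -0.25 (-0.57 to 0.07), Nap1l5, of the nucleosome assembly protein family, -0.34 (-1.09 to 0.41) and Rasgrf1 -0.65 (-1.42 to 0.12).

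By expressed allele, beside 16.2% higher and 16.5% lower over all genes, 9 of 20 paternally expressed genes were higher and 1 was lower, with a median log2 fold change of 0.44. Of 19 maternally expressed genes, 6 were higher and 1 was lower, with a median of 0.20. The difference between the alleles was not tested. Of the 7 members that are not protein-coding, H19 was higher and Kcnq1ot1 lower, and Airn, Meg3, Mirg, Peg13 and Rian were not called, where 3.12% of all genes of that kind were higher and 11.75% lower. Of 29 genes classed from general knowledge as imprinted in many tissues, 12 were higher and 1 lower, with a median log2 fold change of 0.36. Of 11 genes classed as imprinted mainly in placenta, brain or another restricted tissue, 4 were higher and 1 lower, with a median of 0.05. Most of these 11 genes are among the maternally expressed ones, so the expressed allele and the class cannot be told apart here. The classes were not checked in these data.

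Of 38 further imprinted genes, 34 could be tested, and 7 were higher and 6 lower, with a median log2 fold change of 0.07, beside 16.2% higher and 16.5% lower over all genes. Besides Igf2, the higher genes were led by Phactr2, a regulator of actin (log2 fold change 0.55, adjusted p = 6.3e-05), Pon3, a paraoxonase (0.66, adjusted p = 0.00299), and Qpct, a glutaminyl cyclase (0.36, adjusted p = 0.0102). With somatic scaling Phactr2, Pon3 and Qpct were no longer called (adjusted p = 0.152, 0.0675 and 0.811), and Qpct was not called without control replicate 1 either (log2 fold change 0.30, adjusted p = 0.0753). The lower genes were led by Nespas, a paternally expressed antisense RNA at the Gnas locus. It was at 1.27, 1.47 and 1.97 CPM in KO-labelled libraries, against 4.95, 4.59 and 5.09 CPM in controls (log2 fold change -1.64, adjusted p = 8.5e-05). Its ratio to Gnas reads was lower in every KO-labelled library than in any control (exact permutation p = 0.1, the smallest possible, adjusted p = 0.3). Zdbf2, a zinc finger gene, showed a log2 fold change of -0.66 (adjusted p = 4.98e-04) and Sfmbt2, a Polycomb group gene, one of -0.45 (adjusted p = 0.00215).

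Of 18 genes that set, read or maintain imprints, 2 were higher and 5 lower, beside 16.2% and 16.5% of all genes. The de novo methyltransferase gene Dnmt3a was at 229, 263 and 258 CPM in KO-labelled libraries, against 184, 180.5 and 188 CPM in controls (log2 fold change 0.44, adjusted p = 5.50e-04), and Arid4a, a chromatin factor, showed a log2 fold change of 0.52 (adjusted p = 3.13e-04). Neither was called with somatic scaling (adjusted p = 0.45 for Dnmt3a and 0.23 for Arid4a). On that scale 11 of the 18 were lower, where 32.3% of all genes were lower and 3.29% higher. Ctcfl, the germline paralog of the insulator protein CTCF, was at 3.33, 5.07 and 3.12 CPM in KO-labelled libraries, against 27.7, 28.5 and 25.2 CPM in controls (log2 fold change -2.82, adjusted p = 4.67e-08). Lower, too, were the maintenance methylation genes Uhrf1 (log2 fold change -0.85, adjusted p = 7.91e-06) and Dnmt1 (-0.39, adjusted p = 8.63e-04) and the methyltransferase gene Dnmt3b (-0.72, adjusted p = 5.70e-04). DNA methylation was not measured in these libraries.

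The direction of the smaller changes depended on the scaling. With libraries scaled to markers of 6 somatic cell types, weighted equally, the median log2 fold change of all genes moved to -0.33, and that of the imprinted genes to -0.03. Rescaling moves all genes by nearly the same amount. The distance between the medians, 0.31 against 0.30 with TMM, was therefore nearly fixed beforehand and is no test. On that scale 5 imprinted genes were called higher, H19, Magel2, Mest, Peg10 and Zim1, beside 3.29% of all genes, and 6 were lower, Kcnq1ot1, Ascl2, Commd1, Rasgrf1, Tssc4 and Ube3a, beside 32.3% of all genes. The other 11 calls were lost. Of these, Dlk1 showed a log2 fold change of 0.29 (adjusted p = 0.106), Ndn 0.26 (adjusted p = 0.106), Peg3 0.30 (adjusted p = 0.0811) and Ppp1r9a 0.33 (adjusted p = 0.0555), while Gnas had 0.09 and H13 turned to -0.02. H19, Kcnq1ot1, Mest, Peg10 and Zim1 were called under all 12 alternatives tried.

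**Figure D4:**
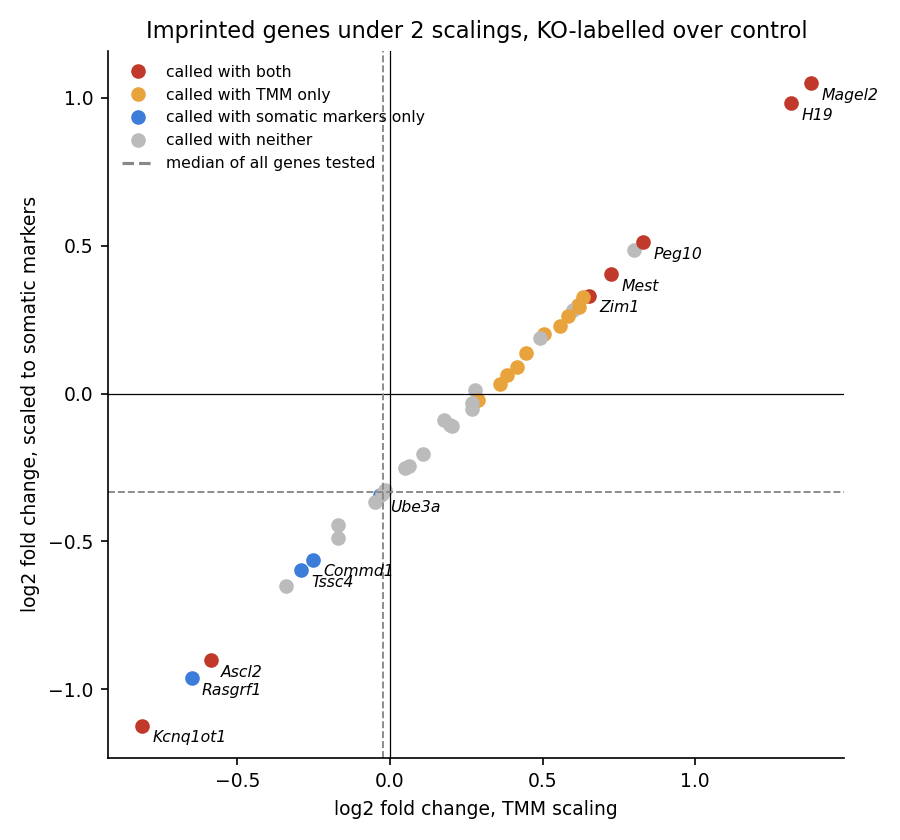
Log2 fold change of each of the 40 imprinted genes with TMM scaling (x axis) and with libraries scaled to somatic markers (y axis), coloured by the scalings under which the gene was called, with dashed lines at the medians of all genes tested (-0.02 and -0.33). The points lie along a line shifted down, and 5 higher and 2 lower calls are shared by both scalings.

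KO-labelled replicate 1 had the highest level of the KO-labelled libraries for 13 of the 16 higher genes, against 38.6% of the 3294 genes called higher over the whole table. The same library had the highest somatic markers, 0.29 log2 units above the mean of the libraries, where the other KO-labelled libraries were at 0.12 and 0.06 and the controls at -0.15, -0.22 and -0.10. Without it, 13 imprinted genes were higher, of which 11 were among the 16 and Nnat and Trappc9 were newly called, and 1 was lower. Of all 21642 genes tested without that library, 3040 were higher and 3012 lower.

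RefSeq promoter windows of 300 bases on GRCm38.p6 were matched for 33 of the 40 genes, all but Cdkn1c, H19, Impact, Peg10, Peg13, Sgce and Trappc9. ZFP57, a zinc finger protein that keeps methylation at imprinting control regions, binds TGCCGC. This motif, searched on both strands, was present in a window of 9 of the 33 genes (27.3%), against 13.1% of 27025 genes with windows. Of the 9 genes, Mest, Plagl1 and the maternally expressed Zim1 were called higher, and Commd1, Grb10, Meg3, Nap1l5, Nnat and Snrpn were not called. Cd81, Dlk1, Gnas, H13, Magel2, Ndn, Peg3, Ppp1r9a and Usp29 were higher without the motif in a window. A link between the motif and the calls was not tested. The imprinted windows were also richer in CG dinucleotides, with a median of 16.5 a window against 7 over all windows. A consensus motif of the insulator protein CTCF, also searched on both strands, was in no window of the 33 genes and in 0.0407% of all genes. At so low a share, its absence from 33 genes tells nothing about CTCF at imprinted genes. The windows of Mest (chr6:30737800-30738099, plus strand) and Plagl1 (chr10:13090582-13090881, plus strand) are shown because both genes were higher and paternally expressed and hold the ZFP57 motif, in capitals, on the strand opposite to the one printed:
Mest: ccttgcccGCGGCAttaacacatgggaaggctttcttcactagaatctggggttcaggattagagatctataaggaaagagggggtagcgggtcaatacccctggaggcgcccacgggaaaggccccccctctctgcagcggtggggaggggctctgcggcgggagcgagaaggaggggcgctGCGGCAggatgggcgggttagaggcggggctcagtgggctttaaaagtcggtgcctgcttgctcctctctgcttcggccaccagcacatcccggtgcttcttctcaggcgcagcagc
Plagl1: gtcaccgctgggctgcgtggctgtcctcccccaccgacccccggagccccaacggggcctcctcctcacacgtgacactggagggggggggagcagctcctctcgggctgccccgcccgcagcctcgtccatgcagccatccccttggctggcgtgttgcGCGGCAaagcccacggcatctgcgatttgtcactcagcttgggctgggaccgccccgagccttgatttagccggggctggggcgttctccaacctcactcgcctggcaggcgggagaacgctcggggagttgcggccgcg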

How the data were processed

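Total RNA from whole testes was sequenced as 50-base single-end reads after random and poly(T) priming, strand selection and depletion of abundant transcripts. The deposited values are raw counts per gene, which the authors made with cutadapt, HISAT2 on GRCm38.p5 and featureCounts 1.6.4, stranded, on the GENCODE M18 annotation, leaving out reads that mapped to several places or genes. The exon length in the same deposited file gave the levels per kilobase, and 1 column per library was used. Gene names were taken from GENCODE M21. Genes were filtered with filterByExpr and tested in edgeR 4.0.16 (R 4.3.3) with TMM scaling over all 6 libraries, 3 a group, with no covariate. CPM are TMM-scaled, and fold intervals are 95% intervals. The fit was repeated with DESeq2 1.42.0, RLE factors, scaling to somatic markers, no filter, a minimum of 10 counts in every library, a replicate block, and each library left out. All 40 imprinted genes are named, called ones with every library, and of the other lists at most 4 genes a direction, those of smallest adjusted p. The genes and lists were chosen with earlier results of these data known. Expressed alleles and the classes by tissues of imprinting come from general knowledge. Sequences are from RefSeq on GRCm38.p6.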

Additional observations from a re-analysis of the deposited data

How the results depend on the processing

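With libraries scaled to somatic markers, 5 imprinted genes were called higher and 6 lower, against 16 and 2 with TMM, as were 1 and 11 of the other imprinted genes, 0 and 11 of the imprint maintenance genes and 668 and 6573 of all genes. By edgeR 0 of the maintenance genes was higher there at an unadjusted p under 0.05 as well, and DESeq2 was not run on that scale. On that scale the log2 fold change turned to -0.11 for Grb10, -0.023 for H13, -0.25 for Inpp5f, -0.25 for Meg3, -0.11 for Peg13, -0.051 for Rian, -0.21 for Sgce, -0.090 for Slc22a18, -0.031 for Trappc9 and -0.092 for Dis3l2. The cause was not tested. DESeq2 gave 18 higher and 2 lower imprinted genes, RLE factors 17 and 2, no filter 18 and 2, and a minimum of 10 counts 15 and 2. Over all genes, DESeq2 called 3600 higher and 3373 lower and RLE factors 3434 and 3239, each of 20327 tested. No filter gave 3569 and 3374 of 42383, and a minimum of 10 counts 3110 and 3366 of 17400. Without the filter the signs of Blcap (5e-04) and Mirg (0.0099) turned, and the median over all genes was -0.33.

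Leaving out 1 library gave 13 to 16 higher and 1 to 2 lower imprinted genes, Ascl2 being lost without KO-labelled replicate 1 or 2 or control replicate 2. Over all genes, 2385 to 3331 were then higher and 2563 to 3338 lower, of 21008 to 21642 tested. The sign turned for genes that had not been called, with log2 fold changes of -0.23 to 0.055 for Airn, -0.096 to 0.026 for Blcap, -0.11 to 0.14 for Inpp5f, -0.047 to 0.18 for Meg3, -0.084 to 0.068 for Mirg, -0.45 to 0.088 for Mkrn3, -0.67 to 0.059 for Nap1l5, -0.15 to 0.64 for Nnat, -0.52 to 0.087 for Phlda2, -0.20 to 0.62 for Slc22a18 and -0.077 to 0.028 for Ube3a. The other calls that the named genes lost or gained with a library left out stand in the report.

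The labels link the samples of the groups only by a replicate number. Over all genes tested, same-numbered libraries did not deviate together (correlations of -0.001, -0.013 and 0.014). Such correlations cannot show that same-numbered libraries share nothing else, or that no single gene varied with the number. A fit with the replicate number as a block gave 17 higher and 2 lower imprinted genes and kept all 18 calls, adding Rian (0.26, adjusted p = 0.0363). Of all 20327 genes tested, that fit called 3271 higher and 3290 lower.

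With 3 libraries a group, changes in most genes under 20 CPM were measured with wide intervals, and so was that of H19 (95% interval 0.88 to 1.75). The counts do not separate alleles, cell types or unspliced from spliced RNA.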
